A study of Mus musculus with 12 samples.

Results

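Fibroblasts make up much of the stroma of pancreatic tumors, and 9 genes that identify them or mark their matrix-producing cancer-associated form (matrix CAFs) are described here. They are Pdgfra, Pdgfrb, Pdpn, Fap and Thy1, which encode surface proteins used to recognise fibroblasts, and Postn, Cthrc1, Lrrc15 and Tnc, which mark matrix CAFs. They were picked by gene symbol from the 47643 genes of the expression tables, and all 9 were found. The measurements come from bulk poly(A) RNA sequencing of 12 pieces of pancreatic tumor from mice. All 12 tumors were grown from 1 line, KPC4662, derived from a mouse pancreatic ductal adenocarcinoma, and the groups differ by the age of the host: 6 Old tumor libraries from old mice and 6 Young tumor libraries from young mice. No treatment or engineered host allele is named in the labels, which also give no age in months, strain, sex or implantation route. Nor do they say that the pieces came from separate mice, so each p-value measures the spread between these pieces, which may in part be technical.

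Mesenchymal cells receive platelet-derived growth factor through the receptor tyrosine kinases encoded by Pdgfra and Pdgfrb, the alpha chain typical of fibroblasts and the beta chain shared with mural cells, the pericytes and smooth muscle cells around vessels. In pancreatic cancer, fibroblasts and stellate cells lay down a dense collagen matrix. Subsets are commonly told apart as matrix-producing or myofibroblastic cells, with Postn, Cthrc1, Lrrc15 and Tnc among their markers, and as inflammatory cells that secrete cytokines and chemokines. None of the surface genes is exclusive to fibroblasts: Pdpn is also a lymphatic endothelial and mesothelial gene, and Thy1 is a classic mouse T cell gene.

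Sequencing depth was lowest in Old tumor 6, with 17.8M counts, and highest in Old tumor 5, with 24.1M. No pair of libraries of an age agreed within sampling noise (lowest chi-square per degree of freedom 15.52), and each was kept as its own sample. The labels name the cell type as epithelial. TPM is a level per transcript length, scaled to 1 fixed sum in every library. The keratin gene Krt8 alone reached 1207 to 2051 TPM in Old tumor and 1315 to 2203 TPM in Young tumor. The 8 tumor epithelial markers, Krt8 among them, summed to 5207 to 8326 TPM in Old tumor and 5308 to 9136 TPM in Young tumor. A reference list held 10 fibroblast matrix genes, among them Col1a1, Dcn and Fbln2. These summed to 1442 to 5937 TPM in Old tumor and 1540 to 2735 TPM in Young tumor. The fibroblast sum was the larger only in Old tumor 1, at 5937 against 5207 TPM. Of that fibroblast sum, Fbln2 alone made up 692 to 1001 TPM in Old tumor and 725 to 937 TPM in Young tumor. The tissue therefore held a stromal signal beside the epithelial one. Old tumor 1 stood apart: it had the highest sum of those 10 genes, and the adipocyte hormone gene Adipoq stood at 40.3 TPM in it, against at most 1.88 TPM in any other library. Old tumor 4 had the lowest sum, 1442 TPM. For each of the 9 genes the fold change is given with and without Old tumor 1, and for the genes of other lists where its omission moved a value by more than 1.5 times.

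Between ages, none of the 9 genes passed the test. With edgeR's quasi-likelihood test and Benjamini-Hochberg adjustment over all 16013 genes tested, 0 of the 9 reached an adjusted p under 0.05, where 2.53% of all genes did (0.918% or 147 genes higher, and 1.61% or 258 genes lower). At an unadjusted p under 0.05 there was 1 of the 9, Pdgfrb, beside 21% of all genes. DESeq2 and limma-voom also called 0 of the 9, with 4 and 1 at an unadjusted p under 0.05. The 21% comes from edgeR and is no measure for the counts of these other tools, so no excess is read from them. Fitted differences lay above 0 for 8 of the 9 genes, beside 8687 of the 16013 genes tested, and the median log2 fold change of old over young was 0.23 over the 9 genes and 0.03 over all genes. Cthrc1 was the exception, with a value below 0, and without Old tumor 1 there were 7 of the 9 above 0. In tumor pieces, fewer cells of a type and less RNA per cell cannot be told apart.

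**Figure D1:**
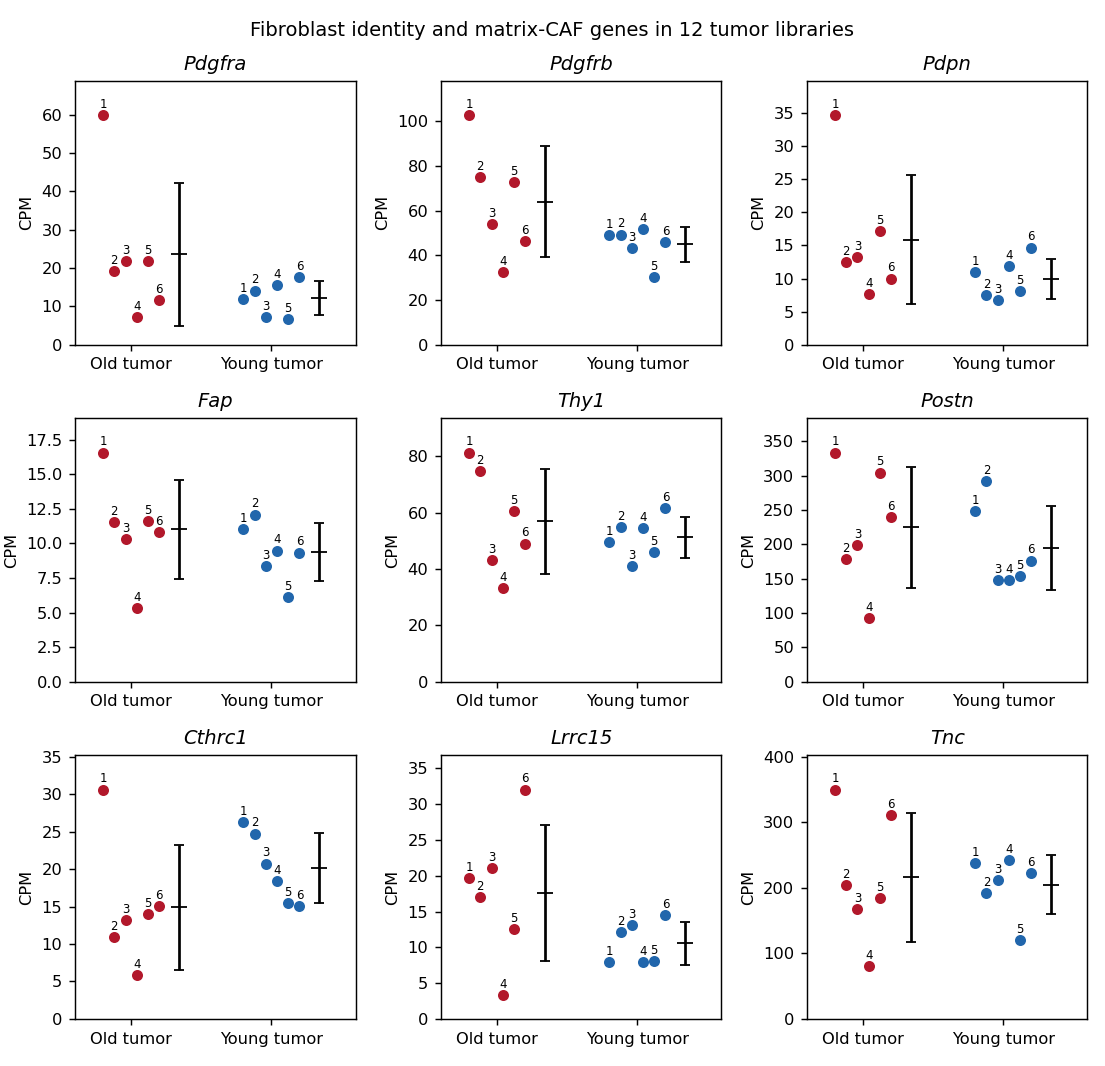
CPM (counts scaled to library size with TMM factors) of the 9 genes in each library, with Old tumor libraries in red on the left of each panel and Young tumor libraries in blue on the right, replicate numbers beside the points, and the mean with 1 SD as a black bar (n = 6 each). Old tumor 1 is the top point in every panel except that of Lrrc15, and 5 of the 6 Old tumor points of Cthrc1 lie below all Young tumor points.

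The plot of CPM by library shows Old tumor 1 and Old tumor 4 at or near the ends of the range for all 9 genes. The order of the other libraries differed between genes, with a Spearman rho of 0.02 for Cthrc1 with Pdgfra and -0.11 with Lrrc15. Old tumor 1 was the highest of the 12 libraries for 8 of the 9 genes and among the highest 3 for Lrrc15. Old tumor 4 was the lowest for 6 genes and among the lowest 3 for all 9. Young tumor 5 was the lowest for Pdgfra and Pdgfrb, and Young tumor 3 for Pdpn. The spread was wider among old than among young pieces for every gene: the coefficient of variation of CPM was 32.5% to 79.5% in Old tumor and 14.2% to 36.4% in Young tumor.

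The surface genes come first. Pdgfra encodes the alpha receptor for platelet-derived growth factor (ENSMUSG00000029231, GRCm38 chr5:75152292-75198215, plus strand; all gene positions are on this build), and Pdpn encodes podoplanin, a mucin-like glycoprotein that binds the platelet receptor CLEC-2 and the cytoskeletal linkers ezrin and moesin (ENSMUSG00000028583, chr4:143267431-143299564, minus strand). These genes had the closest correlation of any pair among the 9, so the 250 bases before their starts are shown, read 5′ to 3′ on the coding strand from RefSeq on GRCm38.p6. Capitals mark every match to 4 motifs searched on both strands. These were the TATA box in its form TATAAA, the E-box with the letters CANNTG that read the same on both strands, the binding site of TEAD factors spelled CATTCC, and the AP-1 site spelled TGANTCA. No marked matches overlapped.
Pdgfra promoter, chr5:75152001-75152250, plus strand: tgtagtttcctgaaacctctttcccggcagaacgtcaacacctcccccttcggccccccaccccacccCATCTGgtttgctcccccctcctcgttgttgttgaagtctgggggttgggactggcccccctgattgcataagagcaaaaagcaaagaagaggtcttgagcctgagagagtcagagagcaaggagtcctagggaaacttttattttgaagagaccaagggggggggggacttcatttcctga
Pdpn promoter, chr4:143299565-143299814, minus strand: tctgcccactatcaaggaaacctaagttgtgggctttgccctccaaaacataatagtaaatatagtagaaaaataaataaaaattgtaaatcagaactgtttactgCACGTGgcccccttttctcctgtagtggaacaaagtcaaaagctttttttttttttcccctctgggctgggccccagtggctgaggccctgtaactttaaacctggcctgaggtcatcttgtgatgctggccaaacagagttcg
Each window held 1 E-box and none of the other 3 motifs. An E-box was in 66.2% of all 32851 promoter windows of the same length, so a single match is the common case and describes letters only.

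Pdgfra was at 7.13, 20.4 and 59.8 CPM in Old tumor (lowest, median and highest library) and at 6.76, 12.95 and 17.6 CPM in Young tumor. Old tumor 1, 2, 3 and 5 lay above every Young tumor library, while Old tumor 4 and 6 lay within the young range, so the groups overlapped. The log2 fold change was 0.95 (SE 0.44; adjusted p = 0.240 with edgeR), and 0.40 without Old tumor 1.

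Pdgfrb, the beta receptor gene (ENSMUSG00000024620, chr18:61045150-61085061, plus strand), had 32.6, 63.5 and 103 CPM in Old tumor and 30.2, 47.6 and 51.8 CPM in Young tumor. The same 4 old libraries, Old tumor 1, 2, 3 and 5, exceeded every young one, and the lowest old and young libraries were close to each other. Its log2 fold change was 0.51 (SE 0.23; adjusted p = 0.235 with edgeR). It was 0.30 without Old tumor 1 and 0.64 without Old tumor 4, neither past the threshold (adjusted p = 0.383 and 0.102).

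Podoplanin mRNA (Pdpn) ran at 7.63, 12.9 and 34.7 CPM in Old tumor, against 6.71, 9.52 and 14.7 CPM in Young tumor. Old tumor 1 and Old tumor 5 lay above the young range and the other old libraries within it. A log2 fold change of 0.67 (SE 0.33; adjusted p = 0.271 with edgeR) shrank to 0.26 without Old tumor 1.

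Fap encodes fibroblast activation protein, a membrane serine protease of activated fibroblasts (ENSMUSG00000000392, chr2:62500943-62574075, minus strand). Its CPM was 5.33, 11.2 and 16.6 in Old tumor and 6.11, 9.41 and 12.1 in Young tumor. Only Old tumor 1 lay above the young range and only Old tumor 4 below it. Its log2 fold change was 0.23 (SE 0.23; adjusted p = 0.588 with edgeR). With a library left out it ran from 0.06 (without Old tumor 1) to 0.37 (without Old tumor 4).

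Thy1 encodes a small glycoprotein anchored in the membrane by glycosylphosphatidylinositol (ENSMUSG00000032011, chr9:44043384-44048579, plus strand). It had 33.3, 54.8 and 81.3 CPM in Old tumor and 41.1, 52.0 and 61.6 CPM in Young tumor. The medians lay close together, and the old libraries reached both above and below the young ones. The log2 fold change was 0.15 (SE 0.19; adjusted p = 0.684 with edgeR), and single omissions gave 0.0088 (without Old tumor 1) to 0.27 (without Old tumor 4).

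The matrix-CAF genes follow. Postn encodes periostin, a secreted matricellular protein that binds integrins (ENSMUSG00000027750, chr3:54361109-54391037, plus strand). Tnc encodes tenascin C, a large matrix glycoprotein of remodelling tissue (ENSMUSG00000028364, chr4:63959785-64047015, minus strand). Their promoter windows are shown, marked by the same motifs, because these were the only ones of the 5 found in the promoter table with a TATAAA match.
Postn promoter, chr3:54360857-54361106, plus strand: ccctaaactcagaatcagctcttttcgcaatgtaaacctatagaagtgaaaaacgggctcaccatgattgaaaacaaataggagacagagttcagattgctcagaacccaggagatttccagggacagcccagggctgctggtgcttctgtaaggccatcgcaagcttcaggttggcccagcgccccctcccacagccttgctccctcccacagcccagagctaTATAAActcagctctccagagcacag
Tnc promoter, chr4:64047016-64047265, minus strand: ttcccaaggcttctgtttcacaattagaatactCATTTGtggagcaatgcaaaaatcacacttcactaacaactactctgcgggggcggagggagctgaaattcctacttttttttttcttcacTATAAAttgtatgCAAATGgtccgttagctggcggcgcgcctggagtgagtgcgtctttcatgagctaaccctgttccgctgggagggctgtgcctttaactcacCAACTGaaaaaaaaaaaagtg
Counted from the start, the TATAAA match began at -26 in Postn and at -126 in Tnc, which also held 3 E-boxes. TATAAA was present in 12.4% of all promoter windows. Pdgfrb, Fap, Thy1 and Cthrc1 had no entry in the promoter table.

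Postn stood at 93.2, 219.8 and 334 CPM in Old tumor and at 148, 165 and 292 CPM in Young tumor. Old tumor 1 and Old tumor 5 exceeded every young library, Old tumor 4 lay under every one, and the ranges overlapped. Its log2 fold change was 0.21 (SE 0.28; adjusted p = 0.709 with edgeR), with 0.04 without Old tumor 1 and 0.37 without Old tumor 4 as the ends of the range over single omissions.

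Tnc was at 81.1, 194 and 350.0 CPM in Old tumor and at 120.3, 218 and 243 CPM in Young tumor. Old tumor 1 and Old tumor 6 were high, but the old median lay under the young one. Its log2 fold change was 0.08 (SE 0.29; adjusted p = 0.906 with edgeR), and ran from -0.13 without Old tumor 1 to 0.25 without Old tumor 4. The antisense gene 8030451A03Rik shares 176 exonic bases with Tnc, and reads of both could not be told apart there if the counting ignored strand. That gene had 249 counts over all 12 libraries, where Tnc had 1946 to 8407 counts in each Old tumor library.

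Lrrc15 encodes a membrane protein with leucine-rich repeats that marks a TGF-beta-responsive subset of CAFs (ENSMUSG00000052316, chr16:30269302-30283256, minus strand). It had 3.33, 18.3 and 32.0 CPM in Old tumor and 7.88, 10.1 and 14.5 CPM in Young tumor. Old tumor 1, 2, 3 and 6 lay above every young library, Old tumor 5 within the young range and Old tumor 4 below it. Old tumor 6, not Old tumor 1, held the highest value. The log2 fold change was 0.73 (SE 0.39; adjusted p = 0.304 with edgeR), and 0.68 without Old tumor 1. Leaving out Old tumor 6 gave 0.47 (adjusted p = 0.504), and leaving out Old tumor 4 gave 0.95 (adjusted p = 0.0756). Old tumor 4 gave the smallest count of any of the 9 genes, 80, with a Poisson 95% interval of 63.4 to 99.6 that covers counting error only.

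Cthrc1 encodes a secreted glycoprotein of matrix-producing fibroblasts that contains a short collagen-like stretch (ENSMUSG00000054196, chr15:39076932-39087121, plus strand). That stretch is shown because Cthrc1 is the gene that parts from the others below. It comprises coding bases 178 to 285 of 735, from the GENCODE vM21 transcript on GRCm38, and capitals mark the GGN glycine codon that opens each of its 12 Gly-X-Y repeats.
Cthrc1 coding sequence, chr15:39080504-39080611, plus strand: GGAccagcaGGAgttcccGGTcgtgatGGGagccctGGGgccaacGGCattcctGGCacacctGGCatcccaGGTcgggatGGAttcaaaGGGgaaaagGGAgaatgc

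Cthrc1 was at 5.88, 13.6 and 30.6 CPM in Old tumor and at 15.1, 19.6 and 26.3 CPM in Young tumor. Old tumor 1 had the highest value of all 12 libraries, and the other 5 old libraries, at 5.88 to 15.0 CPM, lay below every young library. The margin was narrow, since Old tumor 6 at 15.0 CPM was next to Young tumor 6 at 15.1 CPM. On the TPM scale, 2 old libraries lay below every young one. The log2 fold change was -0.43 (SE 0.31; adjusted p = 0.447 with edgeR) with all libraries and -0.79 (SE 0.22) without Old tumor 1, where the adjusted p was 0.0529. Leaving out Old tumor 4 instead gave -0.26 (SE 0.25; adjusted p = 0.595). All 3 fits fell short of the threshold.

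**Figure D2:**
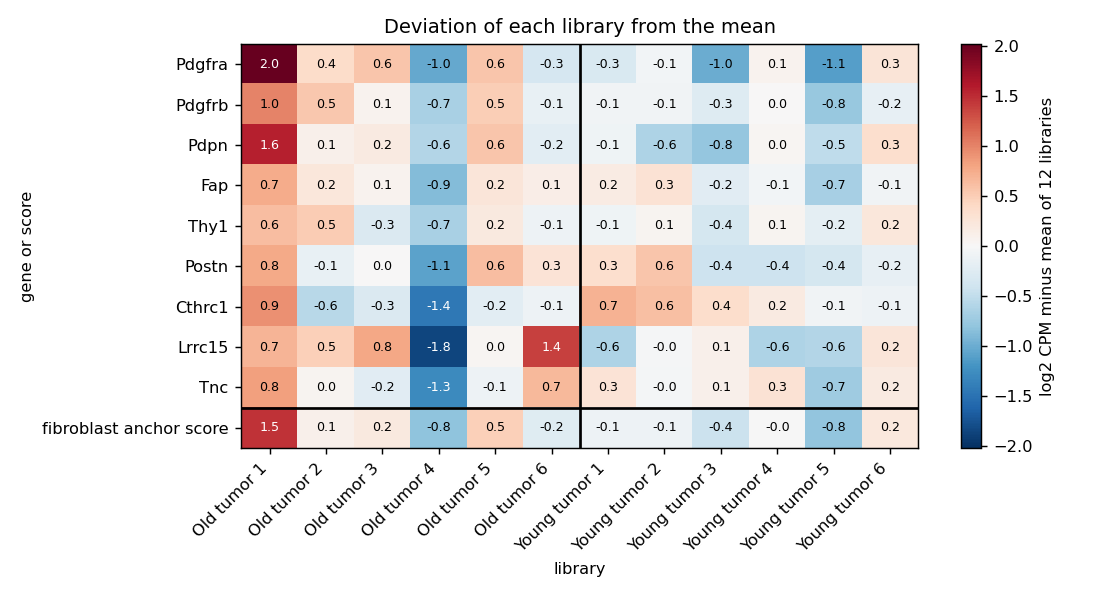
Deviation of each library's log2 CPM from the mean of all 12 libraries, for the 9 genes in rows and, in the last row, for the fibroblast anchor score, the mean log2 CPM of 10 other fibroblast matrix genes; Old tumor libraries are on the left of the vertical line and Young tumor libraries on the right. Old tumor 1 is red and Old tumor 4 blue in every row, and Cthrc1 differs from the score in sign in Old tumor 2, 3 and 5 and Young tumor 1, 2, 3, 4 and 6.

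The 10 genes of the anchor list, Dcn, Lum, Col1a1, Col1a2, Col3a1, Fbln1, Fbln2, Mmp2, Serpinf1 and Bgn, are collagens and other secreted proteins of fibroblasts and share no gene with the 9. All 10 had fitted log2 fold changes above 0, with a median of 0.62. With edgeR, 0 passed the test and 1 was at an unadjusted p under 0.05, beside 21% of all genes. The 4 genes with the smallest p were the proteoglycan genes Bgn at 0.69 and Dcn at 1.12 and the collagen genes Col1a1 at 0.67 and Col3a1 at 0.66. Without Old tumor 1 these were 0.44, 0.13, 0.25 and 0.20, and the median of the 10 was 0.17. Fbln2 had the smallest value, at 0.046 with all libraries and -0.0049 without Old tumor 1. The anchor score was 7.09 to 9.37 in Old tumor, with Old tumor 4 lowest and Old tumor 1 highest, and 7.12 to 8.13 in Young tumor. The heat map of deviations sets the 9 genes above this score.

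Over the 12 libraries, log2 CPM of the surface genes followed the anchor score. For Pdgfra, Pearson's r was 0.98 and Spearman's rho 0.95 (permutation p = 1e-05 for both, the smallest that 100000 resamples can give). Adjusted over 117 pairs of a gene and a list, the permutation p was 0.000585 for r and 0.00117 for rho. This r was 0.99 within Old tumor, 0.95 within Young tumor and 0.94 without the 2 libraries farthest out, Old tumor 1 and Young tumor 5. Pdpn and Pdgfrb had r of 0.94 and 0.92, Fap 0.86 and Thy1 0.80. Without the 2 farthest libraries these were 0.87, 0.83, 0.80 and 0.56. The matrix-CAF genes followed the score less tightly, with r of 0.71 for Postn, 0.67 for Tnc, 0.52 for Lrrc15 and 0.49 for Cthrc1. The genes share libraries and scaling with the score, and no difference between these correlations was tested.

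For Cthrc1, r with the score was 0.92 within Old tumor and 0.14 within Young tumor, and 0.78 with the age means removed. The difference between the ages in r was not tested. The relation over all 12 libraries (r = 0.49, rho = 0.13; permutation p = 0.109 and 0.699) rested on Old tumor 1 and Old tumor 4, since r was -0.32 without them.

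**Figure D3:**
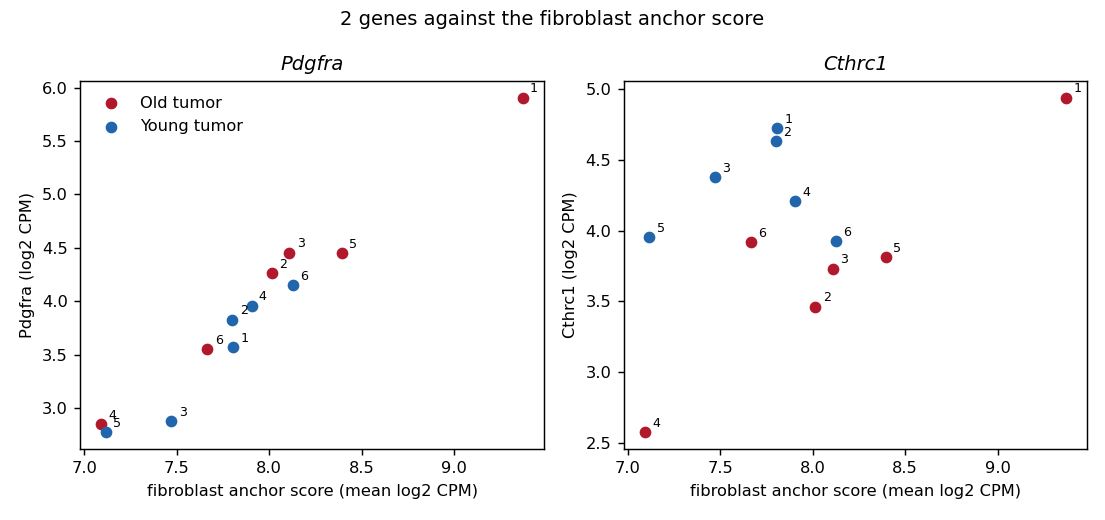
Log2 CPM of Pdgfra (left panel) and Cthrc1 (right panel) against the fibroblast anchor score, with 1 point per library, Old tumor in red and Young tumor in blue, labelled by replicate number. Pdgfra forms a single line with r = 0.98, whereas 5 of the 6 Old tumor libraries lie farther under the anchor score in Cthrc1 than any Young tumor library.

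Measured against the score, Cthrc1 had the largest difference between ages of the 9 genes. Its log2 CPM minus the anchor score was -4.58 to -3.75 in Old tumor, with a mean of -4.37 ± 0.31, and -4.20 to -3.08 in Young tumor, with a mean of -3.40 ± 0.46 (SD, n = 6 each). In the scatter of Cthrc1 against the score, Old tumor 1, 2, 3, 4 and 5 lay farther below the score than any young library, and Old tumor 6 was within the young range. For the other 8 genes, the mean distance to the score differed between ages by -0.43 (Tnc) to 0.32 (Pdgfra) on the log2 scale.

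A second fit over all genes held the anchor score as a covariate, with 1 slope on the score shared by both ages. Whether a shared slope holds was not tested. For Cthrc1, r with the score differed in value between the ages, as given above. Old tumor 1 and Old tumor 5 scored 9.37 and 8.39, above the highest young library at 8.13, so the fit extrapolated for them. In this fit Cthrc1 was lower in Old tumor, with a log2 fold change of -0.89 (SE 0.21, adjusted p = 0.0378 with edgeR). It was the 1 of the 9 genes called, where 4.62% of all genes were called and 2.7% in the lower direction. The other 8 genes had log2 fold changes of -0.22 (Tnc) to 0.57 (Lrrc15), none past the threshold, and Pdgfra, Pdgfrb and Pdpn were at 0.17, 0.16 and 0.13. The value for Cthrc1 stayed between -0.71 and -1.07 with each library left out. Its adjusted p then ran from 0.0248 to 0.146, and the call was lost without Old tumor 2, 3, 4 or 5 or Young tumor 1, 2, 3 or 5. A correction for gene length ended the call too (-0.81; adjusted p = 0.0926). Old tumor 4 and Old tumor 6 also moved the other genes. Without Old tumor 6, Lrrc15 was at 0.0026 and Tnc at -0.60, past the threshold (adjusted p = 0.0462). Without Old tumor 4, Lrrc15 was at 1.01 (adjusted p = 0.109), and Fap, Thy1, Postn and Tnc lay above 0, at 0.083, 0.018, 0.10 and 0.024.

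**Figure D4:**
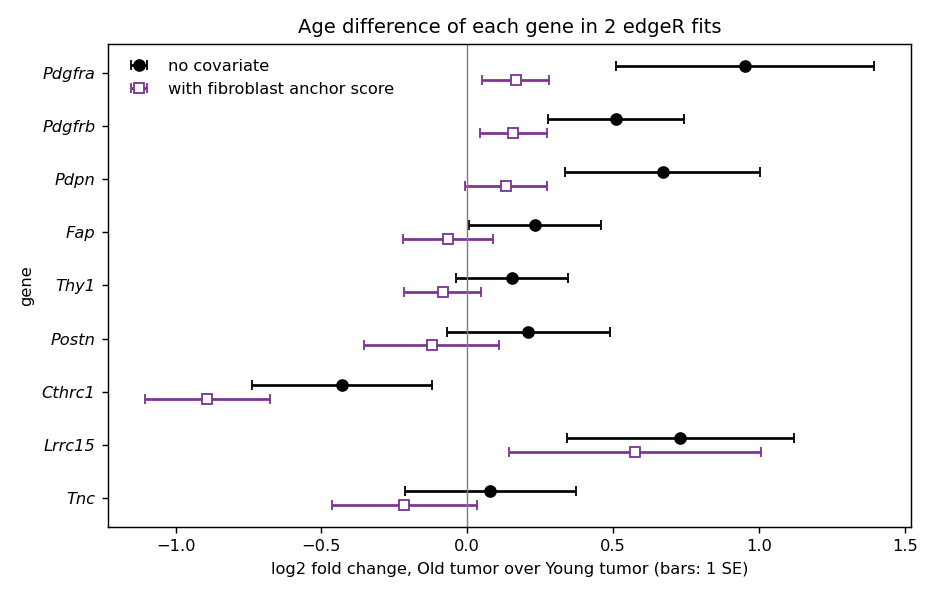
Log2 fold change of Old tumor over Young tumor for the 9 genes in the edgeR fit without a covariate (black circles) and in the fit with the fibroblast anchor score as a covariate (open purple squares), with bars of 1 SE on each side. The values of Pdgfra, Pdgfrb and Pdpn lie near 0 with the covariate, and Cthrc1 lies at -0.89.

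As the plot of fold changes shows, 7 of the other 8 genes lay within 0.22 of 0 on the log2 scale with the covariate and all 12 libraries. Lrrc15 was the exception. Thy1, Postn and Tnc already lay within that distance without the covariate, at 0.15, 0.21 and 0.08. With it, Tnc moved farther from 0, to -0.22. Ratios within a library were also compared between ages. Of all 36 ratios, 9 had a p under 0.05 by an exact two-sided permutation test (smallest possible p 0.00216), and 0 passed after adjustment. A single ratio could not pass this adjustment even at the smallest possible p. Of the 9 ratios, 8 include Cthrc1, so they are not separate observations. The 2 described were chosen after their values were seen. The log2 ratio of Pdgfrb to Cthrc1 averaged 2.17 ± 0.45 in Old tumor and 1.17 ± 0.30 in Young tumor (SD, n = 6 each), and the lowest old library at 1.63 lay just above the highest young one at 1.61 (adjusted p = 0.0519 by the exact permutation test). Postn over Cthrc1, a ratio of matrix-CAF genes, averaged 3.97 ± 0.32 in Old tumor and 3.25 ± 0.29 in Young tumor (adjusted p = 0.0584 by the exact permutation test). Each ran in the same direction in 6 of 6 old libraries relative to the young median.

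**Figure D5:**
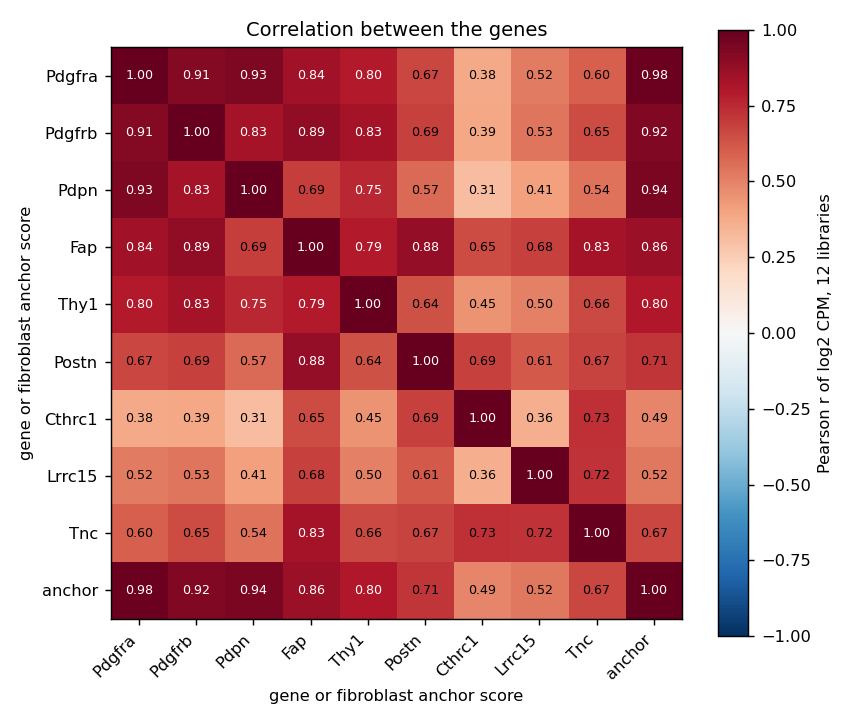
Pearson correlation of log2 CPM over the 12 libraries between each pair of the 9 genes and, in the last row and column, the fibroblast anchor score, on a colour scale fixed from -1 to 1. The surface genes correlate at 0.69 to 0.93 with each other, and Cthrc1 and Lrrc15 have the lowest values.

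Among the 36 pairs of the 9 genes, 24 had a Pearson correlation with an adjusted p under 0.05 by permutation, and 4 a Spearman correlation. The map of correlations shows all pairs. Pdgfra with Pdpn was highest (r = 0.93, rho = 0.85; permutation p = 4e-05 and 0.00071, adjusted p = 0.0006 and 0.00852), and r was 0.86 without the 2 libraries farthest out. Pdgfra with Pdgfrb (r = 0.91), Pdgfrb with Fap (r = 0.89) and Fap with Postn (r = 0.88) followed and also passed by rank. Both growth factor receptors thus varied together from piece to piece.

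Cthrc1 paired best with Tnc (r = 0.73, rho = 0.59; permutation p = 0.00888 and 0.0485, adjusted p = 0.0266 and 0.127). Without Old tumor 1 and Old tumor 4 that r was 0.20, so the relation rests on those libraries. With Pdgfra, Cthrc1 had r = 0.38 over all libraries and 0.73 with the age means removed. Leaving out the 2 farthest libraries for each pair reduced the count of pairs past the threshold to 5, and removing the age means gave 28. Within Old tumor or Young tumor alone, 0 of 36 passed after adjustment by exact permutation of 6 libraries. With 720 permutations a single pair could not pass, however close its correlation, so this 0 does not show that the correlations are absent within an age. For Pdgfra with Pdpn, r was 0.98 within Old tumor and 0.74 within Young tumor.

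The surface genes are shared with other cell types, whose markers were read beside them. The 9 mural markers summed to 55.8 to 237 TPM in Old tumor and 55.9 to 85.7 TPM in Young tumor. Of these 9, 8 had fold changes above 0 and 0 passed the test, with 4 at an unadjusted p under 0.05, beside 21% of all genes. Their score correlated with Pdgfrb at r = 0.88 (rho = 0.85; permutation p = 2e-05 and 0.00074, adjusted p = 0.00078 and 0.00962), and r was 0.81 without the 2 farthest libraries. It correlated with Pdpn at r = 0.89 and with Pdgfra at 0.86, or 0.71 and 0.61 without them. Notch3, a receptor of pericytes and smooth muscle, had a log2 fold change of 0.77, the channel genes Abcc9 and Kcnj8 0.76 and 0.74, and the proteoglycan gene Cspg4 0.56. Without Old tumor 1 these were 0.48, 0.55, 0.41 and 0.39, and 6 of the 9 lay above 0. The smooth muscle myosin gene Myh11 reached 22.2 TPM in Old tumor 1, against at most 3.96 TPM elsewhere. None of the 9 was listed at 0 in all libraries, and their part in the Pdgfra, Pdgfrb and Pdpn values was not tested.

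Blood endothelial markers followed Pdgfrb more closely in value than the mural ones, and no difference between these correlations was tested. The 6 markers summed to 39.6 to 177 TPM in Old tumor and 36.7 to 65.5 TPM in Young tumor. All 6 had fold changes above 0, also without Old tumor 1, with medians of 0.64 and 0.29. With edgeR, 0 passed the test and 1 had an unadjusted p under 0.05, beside 21% of all genes. It was the cadherin gene Cdh5, at 1.08. The receptor genes Kdr and Tie1 were at 0.65 and 0.63 and the adhesion gene Pecam1 at 0.65, or 0.29, 0.30 and 0.31 without Old tumor 1. Their score correlated with Pdgfrb at r = 0.94 (rho = 0.92; permutation p = 1e-05 and 0.0001, adjusted p = 0.000585 and 0.00234), and r was 0.89 without the 2 farthest libraries. It correlated with Pdgfra at r = 0.92 and with Pdpn at 0.88, or 0.78 and 0.69 without them. The part of endothelial cells in these values was not tested.

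For Pdgfra, other marker scores also moved with it over the 12 libraries. Its r was 0.91 with the mesothelial score, 0.79 with the macrophage score and 0.72 with the adipocyte score, and 0.80, 0.43 and 0.41 without Old tumor 1 and Young tumor 5. The 7 macrophage markers summed to 465 to 1073 TPM in Old tumor and 435 to 801 TPM in Young tumor, and the 6 adipocyte markers to 28.8 to 364 TPM in Old tumor and 20.2 to 43.4 TPM in Young tumor. Old tumor 1 held the highest sum of both lists. All 3 adipocyte markers tested had fold changes above 0, also without Old tumor 1, and 1 passed the test. This was Plin4, at 2.27 (edgeR adjusted p = 0.0390), beside 0.918% of all genes called higher. It was at 1.92 without Old tumor 1 (edgeR adjusted p = 0.0311), in a fit that called 1122 genes. The call of Plin4 held in 3 of 12 fits with a library left out and not with the length correction. Against the tumor epithelial score, Pdgfrb, Fap and Postn ran in the opposite direction, at r of -0.70, -0.77 and -0.80. Of the 117 pairs of a gene and a list, 45 had an adjusted p under 0.05. The part of these cells in the 9 genes' values was not tested.

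For Pdpn, the 6 lymphatic endothelial markers summed to 15.0 to 76.6 TPM in Old tumor and 19.8 to 36.1 TPM in Young tumor, with Ccl21a and Reln listed at 0 in at least 1 old library, and Pdpn correlated with their score at r = 0.37. The mesothelial score, over 3 of 5 markers tested, correlated with Pdpn at r = 0.93 (rho = 0.81; permutation p = 0.00017 and 0.00203, adjusted p = 0.00199 and 0.0213), and r was 0.84 without the 2 farthest libraries. That list summed to 335 to 459.9 TPM in Old tumor and 241 to 376 TPM in Young tumor, almost all of it Msln, while the mesothelial transcription factor gene Wt1 reached 14.2 TPM in Old tumor 1 and at most 4.47 TPM elsewhere. The part of mesothelial cells in the Pdpn level was not tested.

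For Thy1, the 8 T cell markers summed to 11.99 to 45.3 TPM in Old tumor and 21.2 to 54.4 TPM in Young tumor. All 8 had fold changes below 0, with a median of -0.81. With edgeR, 0 passed the adjusted threshold and 5 had an unadjusted p under 0.05, beside 21% of all genes. The coreceptor genes Cd8a at -1.28 and Cd4 at -0.75 led them. Without Old tumor 1, Cd8a, Cd4 and Cd3d fell, at -1.66, -0.92 and -1.64 (edgeR adjusted p = 0.0279, 0.0373 and 0.0343). That fit called 1122 genes in all, against 405 with all 12 libraries. With the anchor score as a covariate, Cd8a and Cd3d fell, at -1.71 and -1.65 (edgeR adjusted p = 0.0397 and 0.0423), calls that held in 4 and 3 of 12 fits with a library left out. Neither of these calls held with the length correction. For Thy1, r was -0.02 with the T cell score and 0.80 with the anchor score. Among the markers the highest levels were those of Cd3g, at most 14.5 TPM in Old tumor and 16.1 TPM in Young tumor, and the T cell receptor gene Trac, at most 10.2 TPM in Old tumor and 12.3 TPM in Young tumor. The part of T cells in the Thy1 level was not tested.

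The ligands of the platelet-derived growth factor receptors showed no change past the test. Of the 4, 0 passed, and 1 had an unadjusted p under 0.05, beside 21% of all genes. It was Pdgfa, at a log2 fold change of -0.53. The others, Pdgfb at -0.06, Pdgfd at -0.16 and Pdgfc at 0.03, were closer to 0. When Old tumor 1 was left out, Pdgfb was at -0.10, Pdgfd at -0.32 and Pdgfc at 0.073. Both receptor genes had values above 0 and the ligand list a median of -0.11, or -0.21 without Old tumor 1, none of them past the threshold.

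Partners of podoplanin, 7 genes, had 0 past the threshold, with the hyaluronan receptor gene Cd44 at -0.18, the linker gene Rdx at -0.26, and the tetraspanin genes Cd82 at -0.10 and Cd9 at -0.12. Among 10 receptors for periostin, tenascin C and Thy-1, 0 passed. The syndecan gene Sdc4 was at -0.25, the integrin genes Itga8 at 0.92, Itgav at -0.13 and Itgb5 at 0.11. Of 5 prolyl peptidase relatives of Fap, 0 passed with edgeR, although Dpp8 at 0.28 and Prepl at 0.29 had unadjusted p values of 0.00245 and 0.00668. Both rose without Old tumor 1, at 0.29 and 0.34 (edgeR adjusted p = 0.0344 and 0.0172), in a fit that called 1122 genes. With the anchor score as a covariate Prepl rose, at 0.34 (edgeR adjusted p = 0.0464), a call that held in 4 of 12 fits with a library left out. The length correction ended that call. Dpp9 was at 0.20 and Prep at -0.09.

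Relatives of periostin and tenascin C also had 0 of 5 past the threshold. The tenascin genes Tnxb at 2.36 and Tnr at 1.95 had wide errors (SE 0.88 and 0.82), and the periostin relative Tgfbi was at -0.33 and the procollagen proteinase gene Bmp1 at 0.19, or 0.061 without Old tumor 1. With the anchor score as a covariate, Tgfbi fell, at -0.60 (edgeR adjusted p = 0.0311), a call that held in 6 of 12 fits with a library left out. It also fell without Old tumor 1 and without the covariate, at -0.61 (adjusted p = 0.0126 with edgeR), in a fit that called 1122 genes. Of 6 TGF-beta ligands and receptors, 0 passed: Tgfbr2 was at 0.36, Tgfbr3 at 1.01, Tgfb1 at -0.19 and Tgfb2 at 0.47. Omitting Old tumor 1 placed Tgfbr3 at -0.12 and Tgfb2 at 0.055.

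Matrix-CAF companions, 19 other genes often named with Postn and Cthrc1, were the only one of these fibroblast and pathway lists with changes past the test over all 12 libraries without a covariate. Of the 19, 2 rose in Old tumor and 0 fell, beside 0.918% of all genes higher and 1.61% lower. Values above 0 numbered 16 of 19, beside 8687 of 16013 genes, with a median log2 fold change of 0.25. Without Old tumor 1 they numbered 10 of 19 with a median of 0.09. Itga11, the collagen-binding integrin alpha chain of fibroblasts, had 0.51, 1.25 and 1.84 TPM in Old tumor (lowest, median and highest) and 0.24, 0.29 and 0.61 TPM in Young tumor. Its log2 fold change was 1.63 (SE 0.32; adjusted p = 0.0316 with edgeR), and 1.42 to 1.85 with a library left out.

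Col12a1, a fibril-associated collagen, had 31.0, 69.1 and 90.5 TPM in Old tumor and 27.5, 36.3 and 43.7 TPM in Young tumor, with a log2 fold change of 0.96 (SE 0.21; adjusted p = 0.0395 with edgeR). Libraries of both ages overlapped for each gene. Both rose also with the anchor score as a covariate, at 1.24 and 0.78, calls that held in 10 and 2 of 12 fits with a library left out. In the covariate fit with the length correction, Itga11 kept its call and Col12a1 lost it. Without the covariate the calls also depend on single libraries: Itga11 passed in 4 of 12 fits that left out 1 library and Col12a1 in 3, and the length correction ended the call of Col12a1. Next by p were the matrix gene Comp at 1.3 and the metalloproteinase gene Adam12 at 0.49, neither past the threshold, and at 0.73 and 0.15 without Old tumor 1.

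The inflammatory and universal fibroblast list had 0 of 10 past the threshold and a median of 0.34. Its values were scattered: the chemokine gene Cxcl12 at 2.13 (SE 0.80), Clec3b at 2.01, the collagen gene Col15a1 at 0.53 and Ly6c1 at -0.63. With Old tumor 1 left out, Cxcl12, Clec3b and Col15a1 were at 0.64, 0.24 and 0.25, and the median of the list was -0.12. Fibroblast transcription factors had 0 of 10 past it, with Creb3l1 at 0.33, Tcf21 at 1.35, Osr2 at 0.63 and Twist1 at -0.50. The omission of Old tumor 1 put these last 3 values, for Tcf21, Osr2 and Twist1, at 0.39, 0.36 and -0.78. Twist1, a regulator of mesenchymal fate, fell by 0.87 on the log2 scale in the fit with the anchor score (edgeR adjusted p = 0.0448). That call held in 3 of 12 such fits with a library left out and not with the length correction. It was the 1 gene of that list called there.

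Between the 9 genes, levels per length ranged widely. Mean TPM over the 12 libraries was 172 ± 59.3 for Postn, 52.0 ± 14.5 for Thy1, 49.6 ± 18.2 for Tnc, 27.1 ± 10.2 for Cthrc1 and 16.4 ± 6.54 for Pdgfrb (SD, n = 12). Pdpn followed at 11.9 ± 7.18, Fap at 8.2 ± 2.24, Pdgfra at 4.58 ± 3.71 and Lrrc15 at 4.36 ± 2.56 TPM. By TPM, Postn exceeded Thy1 in all 12 libraries, and Tnc exceeded Cthrc1 in all 12. Thy1 and Tnc did not differ in TPM beyond their spread, with Thy1 above Tnc in 7 of 12, nor did Pdgfra and Lrrc15, with Pdgfra above Lrrc15 in 6 of 12. The order depends on the length used. By mean CPM per kilobase of annotated exon, Tnc came first at 27.1, before Postn at 24.1 and Thy1 at 18.1.

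Each gene's closest companions over the 12 libraries were sought among 12949 genes with a mean of at least 1 CPM, by Pearson correlation of log2 CPM. For Pdgfra they were Aebp1 (r = 0.99), Serping1 (0.98) and Cpxm1 (0.98), for Pdgfrb Fgd5 (0.98), Rftn2 (0.97) and Col15a1 (0.96), and for Pdpn Adgrd1 (0.98), Serping1 (0.96) and Sgce (0.96). Fap was closest to Fam198b (0.97), Pcdhb17 (0.96) and Dse (0.95), and Thy1 to Pcolce, Tmem88 and Cd248 (0.92, 0.92 and 0.91). The matrix-CAF genes had other neighbours. Postn was closest to Mpdz, Aspn and P4ha3 (0.91 each), Cthrc1 to Ier3, Gja1 and Zfp281 (0.92 each), Lrrc15 to Zfp438, Wnt2 and Tnfsf8 (0.90, 0.88 and 0.88), and Tnc to Magi2, Bmp1 and Nuak1 (0.93, 0.92 and 0.92). Serping1 was on the lists of both Pdgfra and Pdpn.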

How the data were processed

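Strand-specific libraries of poly(A) RNA came from the tumor pieces, per the labels' protocols. The submitters' processing notes name cutadapt 2.3, STAR 2.7.0d and RSEM 1.3.1 with build mm10; the annotation and strand setting of the quantification were not stated in the sources used. Expected counts and TPM for 47643 genes were deposited. The deposited expected counts, 86.0% to 88.2% of them whole (tolerance 0), were rounded and tested with edgeR 4.0.16 (R 4.3.3): TMM scaling, filterByExpr, robust quasi-likelihood F test, no block, two-sided. The deposited TPM served for levels and as an alternative. The SE is the size of the log2 fold change divided by the square root of F, and log2 CPM uses a prior count of 2. The 9 genes and 22 lists were chosen with earlier results of these data known. In each fibroblast and pathway list described, the 4 genes with the smallest p are named, and for each of the 9 the 3 most correlated genes. Alternatives used DESeq2 1.42.0, limma 3.58.1, other scalings and filters, covariates and omitted libraries. On simulated data for this comparison over 16013 genes, edgeR recovered 46%, 66%, 94% and 96% of changes of 1.5-, 2-, 4- and 8-fold, with 7.93% false calls.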

Additional observations from a re-analysis of the deposited data

Results flagged for a closer look

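Old tumor 1 lay apart from the other 5 old libraries for 3 of the 9 genes: Pdgfra at 59.8 CPM, Pdpn at 34.7 CPM and Cthrc1 at 30.6 CPM. In each, its gap to the next library was a larger share of the old range (0.721, 0.648 and 0.630) than Dixon's 95% critical value for 6 samples. The check covered 18 sets of 6 libraries, 9 genes in both ages, and chance marks about 1 in 20 such sets. All 3 marks come from the same library, so they are not separate observations. Old tumor 1 also had the highest summed levels of the adipocyte and mural markers, with Fabp4 at 276 TPM against at most 66.5 TPM elsewhere. The mesothelial markers Wt1, Upk3b, Lrrn4 and Upk1b were also highest in Old tumor 1, the last 3 at low levels. Wt1 was at 14.2 TPM, against at most 4.47 TPM elsewhere, and Upk3b at 4.42 TPM, against at most 0.9 TPM. Msln was not, at 311 TPM against up to 458 TPM elsewhere. Their part in the values of the 3 genes was not tested.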

How the results depend on the processing

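The count of all genes past the threshold, 405, was 1439 with DESeq2, 977 with limma-voom, 262 without a filter, 110 with the length correction, 740 with the anchor score, 1 with the acinar score, 1268 at an adjusted p under 0.1 and 747 without Old tumor 1 and Old tumor 5. It ran from 1 (without Old tumor 3) to 1122 (without Old tumor 1) with a library left out, and fell by more than 1.5 times without any other library except Young tumor 3. Replicate numbers did not pair the libraries (correlations of same-numbered deviations from -0.23 to 0.14), and a replicate block left 1 call and Tnc at -0.011. The split of 147 higher to 258 lower became 171 to 160 with total counts, 12 to 98 with the length correction, 291 to 48 on log2(TPM + 1) and 312 to 44 on log2(TPM + 0.1), scales that put the median gene at 0.13 and 0.15. On log2(TPM + 1), Fap at 0.03 and Tnc at 0.10 lay under that median. Of the 9 genes, 1 was called with the anchor score (Cthrc1, -0.89) and 0 in each alternative run without it. With the anchor score, Tnc was called as well without Old tumor 6 (-0.60). Tnc changed sign with limma-voom (-0.10), the length correction (-0.034), the anchor score (-0.22), without Old tumor 1 and Old tumor 5 (-0.092) and with single libraries left out (-0.13 to 0.25). The anchor score also turned Fap (-0.066), Thy1 (-0.084) and Postn (-0.12), and the omission of Old tumor 1 and Old tumor 5 turned Thy1 (-0.023) and Postn (-0.12). With the anchor score, Cthrc1 lost its call without Old tumor 1 and Old tumor 5 (-0.88) and with the length correction (-0.81), and ranged from -1.07 to -0.71 over single omissions. These alternatives for Cthrc1, the ratios and a non-robust fit (362 calls) were chosen after seeing the data. Pairs past the threshold numbered 5 without the 2 farthest libraries. They numbered 0 within Old tumor or Young tumor, where a single pair could not pass by exact permutation of its libraries. By CPM per kilobase of annotated exon, 3 of the 9 genes kept their place in the order of levels, and Tnc, not Postn, was highest. The causes of these changes were not tested. The fewest counts of any of the 9 genes in a library were 80.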
